A study of Homo sapiens with 6 samples.

Results

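The STAT factors and Janus kinases were examined in THP1 cells, a monocytic line from an acute myeloid leukaemia, after contact with a Notch ligand. The members were the genes STAT2, STAT3, STAT4, STAT5A, STAT5B, STAT6, JAK1, JAK2 and TYK2, and every probe set that the array annotation gave to exactly 1 of these symbols was taken. Of the 9 genes 8 had such a probe set, 5 STAT and 3 Janus kinase genes, among 19775 genes in all; STAT2 was not analysed here. They held 22 of the 54675 probe sets on the array. In the Dll4-Fc group THP1 cells spent 48 hours on a coating of Dll4-Fc, a fusion of the Notch ligand Dll4 with an Fc fragment, and in the untreated group they had no such coating, with 3 samples and 3 Affymetrix Human Genome U133 Plus 2.0 arrays each. The sample labels give the coating as 60 nM and the treatment protocol as 30 nM, and the protocol calls the control vehicle. Both groups are 1 cell line grown in RPMI with serum, and no sample was labelled as coated with Fc alone. The labels do not give separate cultures within a group. A p-value here thus weighs a difference only against the spread of these samples, which may be technical spread. The series title asks what Notch activation does to growth balance and maturation in acute myeloid leukaemia.

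Janus kinases are tyrosine kinases bound to the inner part of cytokine receptors that have no kinase of their own. When a cytokine brings receptor chains together, the kinases phosphorylate each other and the receptor, STAT proteins dock on the receptor through their SH2 domains and are phosphorylated on a tyrosine, and STAT dimers enter the nucleus and bind DNA. Their activity is thus set mainly by phosphorylation, which an RNA array does not measure. In myeloid cells the pathway carries the signals of interferons, interleukin 6, interleukin 10, interleukin 4 and the colony-stimulating factors.

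The messenger RNAs of the STAT and Janus kinase genes moved little with Dll4-Fc. STAT3, the factor downstream of interleukin 6 and interleukin 10, rose 1.19-fold and TYK2, a kinase of the interferon alpha/beta and interleukin 12 receptors, rose 1.18-fold, and no member reached 2-fold. Differences are Dll4-Fc minus untreated in log2 signal, ± is the standard error of the difference with n = 3 arrays per group, and a gene passed at a Benjamini-Hochberg adjusted p under 0.05 in limma's test over all genes, each represented by its brightest probe set. Of the 8 members 2 rose and 0 fell (4 and 1 at an unadjusted p under 0.05). Of all genes 26.6% passed, 11.6% as higher and 15.0% as lower. The share of members that passed in either direction was thus close to that of all genes, though both that passed were higher. The share over all genes includes dim genes, whereas all 8 members lay above the median probe set signal. Without dim features 43.8% of genes passed, and 4 members rose and 1 fell. The median size of the difference was 0.22 for members and 0.12 over all genes. The difference was positive for 6 members and negative for 2, STAT5B and JAK1, with a median of 0.22 against -0.01 over all genes tested. The groups did not overlap for 6 of the 8 members, against 41.6% of all genes. STAT3 had the largest difference in size, larger than that of 75.3% of genes, and STAT5A the smallest, at 37.7%. At least 2-fold and past the threshold were 3.21% of all genes, and the smallest difference that passed in any gene was 0.16 in size, larger than those of STAT5A and JAK1. The members' standard errors were 0.058 to 0.11, against differences of 0.08 to 0.26 in size, so a member that missed the threshold is not shown to be unchanged. Of the 22 member probe sets 2 rose, both of STAT3, and 0 fell (7 and 2 at an unadjusted p under 0.05) in a fit of all probe sets, where 16.5% passed, 7.21% as higher and 9.25% as lower. The groups did not overlap in 12 of these 22, against 33.2% of all probe sets.

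**Figure D1:**
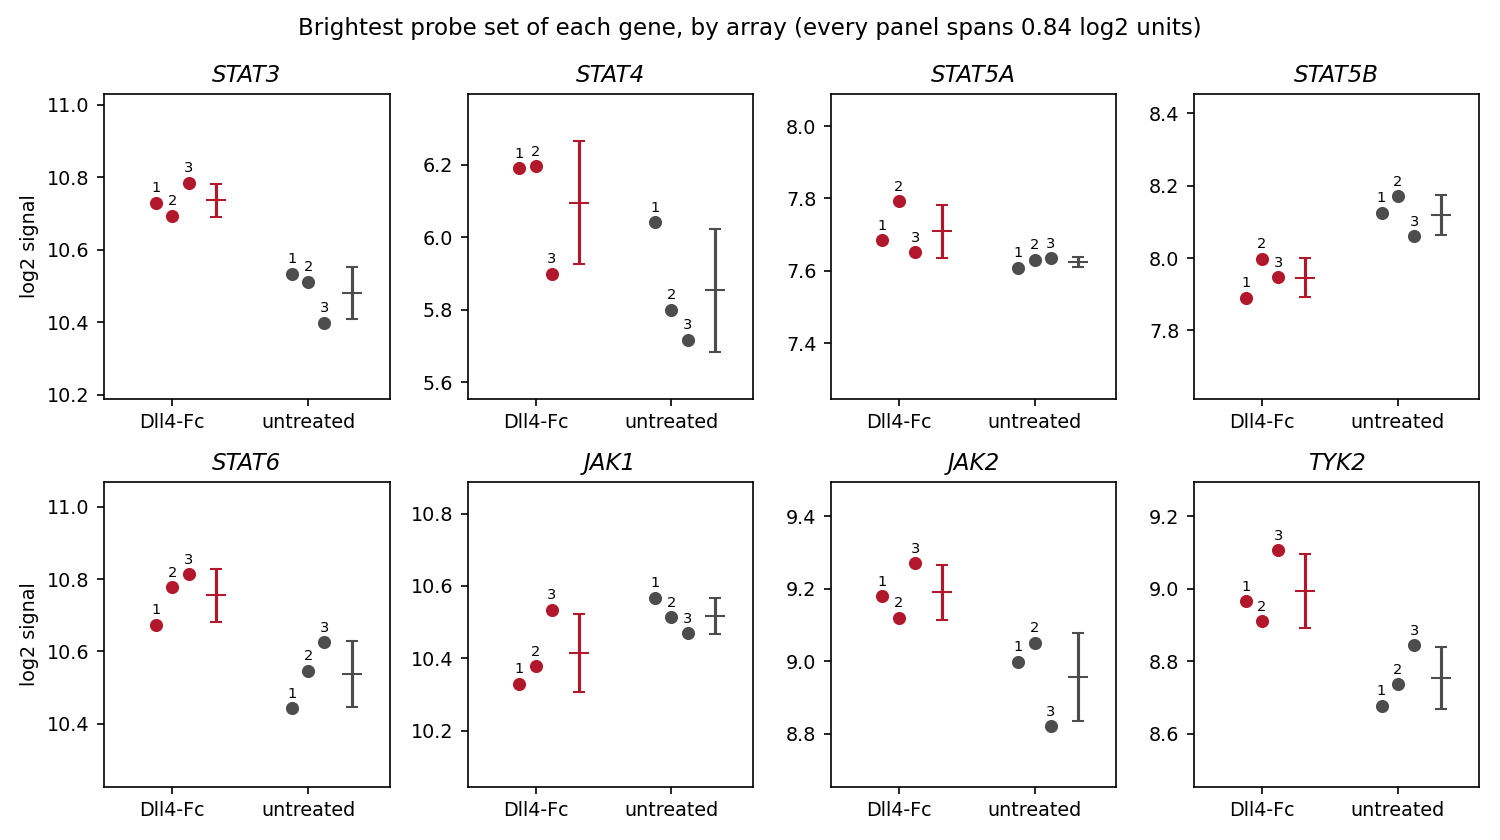
Log2 signal of the brightest probe set (y axis, each panel spanning the same 0.84 log2 units) for the 8 measured genes in the Dll4-Fc arrays (red, left) and the untreated arrays (grey, right); numbers are replicate numbers, and the bar gives the mean and SD of 3 arrays. The groups do not overlap for STAT3, STAT5A, STAT5B, STAT6, JAK2 and TYK2, with a narrow gap for STAT5A, STAT5B, STAT6, JAK2 and TYK2, and overlap for STAT4 and JAK1.

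Across genes, r was 0.981 to 0.985 between a Dll4-Fc and an untreated array and 0.997 to 0.999 between arrays of the same group. The log2 ratio of 3' to 5' control probe sets, a sign of RNA integrity, was 0.67 ± 0.03 in Dll4-Fc and 0.72 ± 0.05 in untreated arrays for actin (SD, n = 3 each; 2-sided exact permutation p = 0.2) and 0.39 against 0.38 for GAPDH (exact permutation p = 0.9), and 3 arrays against 3 cannot go below 0.1. Of 8 myeloid markers 6 were measured, and 5 of these lay above the median probe set signal of 5.70 in each group, among them lysozyme (LYZ) and the colony-stimulating factor receptor CSF1R. Of the 6, LYZ, CSF1R and SPI1 rose, by 2.00, 1.75 and 0.31, and MPO, the myeloperoxidase of granules, fell by 0.79 (adjusted p = 0.0018). The summed intensity of the 6 was 15038 to 17467 in Dll4-Fc arrays, against 4383 to 4749 in untreated arrays, and LYZ made up most of it in both groups. All 5 T cell and all 3 measured epithelial markers lay below that median in both groups and none of these passed. Of 3 measured B cell markers 2, PAX5 and CD79A, lay above it in both groups, and PAX5 rose by 0.60. Of the 2 measured erythroid markers 1, HBB, lay above it in both groups, and neither gave a call. Whether these markers, or RNA integrity, bear on the members was not tested. The arrays measured bulk RNA, in which fewer cells that express a gene and less of its RNA per cell cannot be told apart.

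Among the kinases, TYK2 is the partner of JAK1 at the interferon alpha/beta receptor and of JAK2 at the interleukin 12 receptor. Its only probe set gave log2 signals of 8.97, 8.91 and 9.11 in Dll4-Fc arrays, against 8.68, 8.74 and 8.85 in untreated arrays. Every Dll4-Fc array was above every untreated array, but the lowest of the first and the highest of the second lay close together. The difference was 0.24 ± 0.07, a fold of 1.18 with a 95% interval of 1.05 to 1.33 and an adjusted p of 0.0497. This call ended on leaving out any single array except untreated replicate 3 (adjusted p = 0.0591 to 0.143), with median centring of the arrays (0.0646) and when all 54675 probe sets were fitted together (0.0830).

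JAK2 serves the receptors of erythropoietin, granulocyte-macrophage colony-stimulating factor and interferon gamma. Its brightest probe set, 205842_s_at, gave 9.18, 9.12 and 9.27 in Dll4-Fc arrays, against 9.00, 9.05 and 8.82 in untreated arrays. The groups did not overlap, untreated replicate 3 being the lowest array. The difference of 0.23 ± 0.08 (95% interval 0.05 to 0.42, adjusted p = 0.0653) did not pass. With cyclic loess normalization it was 0.30 and passed (adjusted p = 0.0113). The other 2 JAK2 probe sets differed by 0.12 ± 0.11 and -0.03 ± 0.12, and both overlapped between groups.

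JAK1 is shared by most receptors of the pathway, including all those of interferons. Its brightest probe set, 201648_at, gave 10.33, 10.38 and 10.53 in Dll4-Fc arrays, against 10.57, 10.51 and 10.47 in untreated arrays. The groups overlapped, since Dll4-Fc replicate 3 was above 2 of the untreated arrays. The difference was -0.10 ± 0.07 (95% interval -0.27 to 0.06, adjusted p = 0.352). All 5 JAK1 probe sets differed in the negative direction, by -0.10 to -0.19, and none passed in the fit of all probe sets. The most negative, 1552611_a_at, gave 8.77, 8.71 and 8.70 in Dll4-Fc arrays, against 9.02, 8.86 and 8.86 in untreated arrays, without overlap (-0.19 ± 0.07, adjusted p = 0.127). Probe sets of 1 gene read the same RNA sample and are not replicates.

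TYK2 and JAK1 differed in opposite directions in their brightest probe sets, of which only TYK2 passed. The difference of TYK2 minus that of JAK1, taken within each array, was 0.34 ± 0.08, and the 2 groups of arrays did not overlap in it. The 2-sided exact permutation p was 0.1, the smallest that 3 arrays against 3 can give, and remained 0.1 after adjustment over the 3 gene pairs compared in this way. These 3 pairs were chosen after their values were seen.

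STAT3 gave the firmest call of the family. Its brightest probe set, 208991_at, gave log2 signals of 10.73, 10.69 and 10.79 in Dll4-Fc arrays, against 10.53, 10.51 and 10.40 in untreated arrays. All Dll4-Fc arrays lay above all untreated arrays, and untreated replicate 3 was the lowest. The difference was 0.26 ± 0.06, a fold of 1.19 with a 95% interval of 1.08 to 1.32 and an adjusted p of 0.0180. A further probe set, 225289_at, gave 9.66, 9.73 and 9.74 in Dll4-Fc arrays, against 9.45, 9.46 and 9.28 in untreated arrays. It rose by 0.32 ± 0.07 (adjusted p = 0.0219 in the fit of all probe sets). The third, 208992_s_at, gave 0.24 ± 0.07 without overlap and did not pass (0.0520), and the fourth, 243213_at, which lay below the median signal, gave 0.11 ± 0.08. The STAT3 call ended without Dll4-Fc replicate 1 (adjusted p = 0.0625) or Dll4-Fc replicate 3 (0.0557), with differences of 0.26 and 0.23.

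STAT6, the factor of interleukin 4 and interleukin 13, was read by 2 probe sets. The brighter, 201331_s_at, gave 10.67, 10.78 and 10.81 in Dll4-Fc arrays, against 10.44, 10.55 and 10.63 in untreated arrays. The groups did not overlap, but Dll4-Fc replicate 1 lay only just above untreated replicate 3. The difference of 0.22 ± 0.07 (95% interval 0.05 to 0.38) missed the threshold at an adjusted p of 0.0567, and the other probe set gave 0.11 ± 0.07. It passed under 5 of 14 alternatives, with adjusted p-values between 0.00709 and 0.158 over all of them.

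STAT4, which interleukin 12 activates in lymphocytes, was the dimmest of the members against the array median, with 1 probe set. It gave 6.19, 6.20 and 5.90 in Dll4-Fc arrays, against 6.04, 5.80 and 5.72 in untreated arrays. The groups overlapped, and the replicates of each group spread more widely than the gap between the group means of any other member. The difference of 0.24 ± 0.11 had a 95% interval of -0.02 to 0.51 and did not pass (adjusted p = 0.171).

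STAT5A and STAT5B are close relatives that act downstream of growth hormone, prolactin, erythropoietin and the colony-stimulating factors. In the RefSeq gene table they are neighbours on chromosome 17, and STAT3 is the next protein-coding gene beyond STAT5A. STAT5A, with 1 probe set, gave 7.68, 7.79 and 7.65 in Dll4-Fc arrays, against 7.61, 7.63 and 7.63 in untreated arrays. The groups did not overlap by a small margin, and the difference was 0.08 ± 0.06 (95% interval -0.05 to 0.22, adjusted p = 0.355). STAT5B in its brightest probe set, 212549_at, gave 7.89, 8.00 and 7.95 in Dll4-Fc arrays, against 8.12, 8.17 and 8.06 in untreated arrays. Every Dll4-Fc array was lower, and the difference of -0.17 ± 0.06 (95% interval -0.31 to -0.04) missed the threshold at an adjusted p of 0.0667.

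The probe sets of STAT5B went in both directions. The next in brightness, 1555088_x_at, gave 6.88, 6.92 and 7.04 in Dll4-Fc arrays, against 6.60, 6.71 and 6.82 in untreated arrays. There the Dll4-Fc arrays were all higher (0.24 ± 0.08, adjusted p = 0.0928), opposite to 212549_at. The other 3 differed by 0.17 ± 0.11, 0.04 ± 0.06 and 0.08 ± 0.09 with overlapping groups, and the mean of all 5 gave 0.07 (adjusted p = 0.407), so the direction of STAT5B depends on the probe set. The suffix _x_at marks probes that may bind other transcripts, and signals of STAT5A and STAT5B may not be fully separate. The difference of STAT5A minus that of STAT5B, from the brightest probe sets, was 0.26 ± 0.05 and that of STAT3 minus STAT5B 0.43 ± 0.05. Each was without overlap, which gives a 2-sided exact permutation p of 0.1, the smallest that 3 arrays against 3 can give. Both pairs were chosen after their values were seen. Both also rest on 212549_at, whose direction the other STAT5B probe sets did not share.

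**Figure D2:**
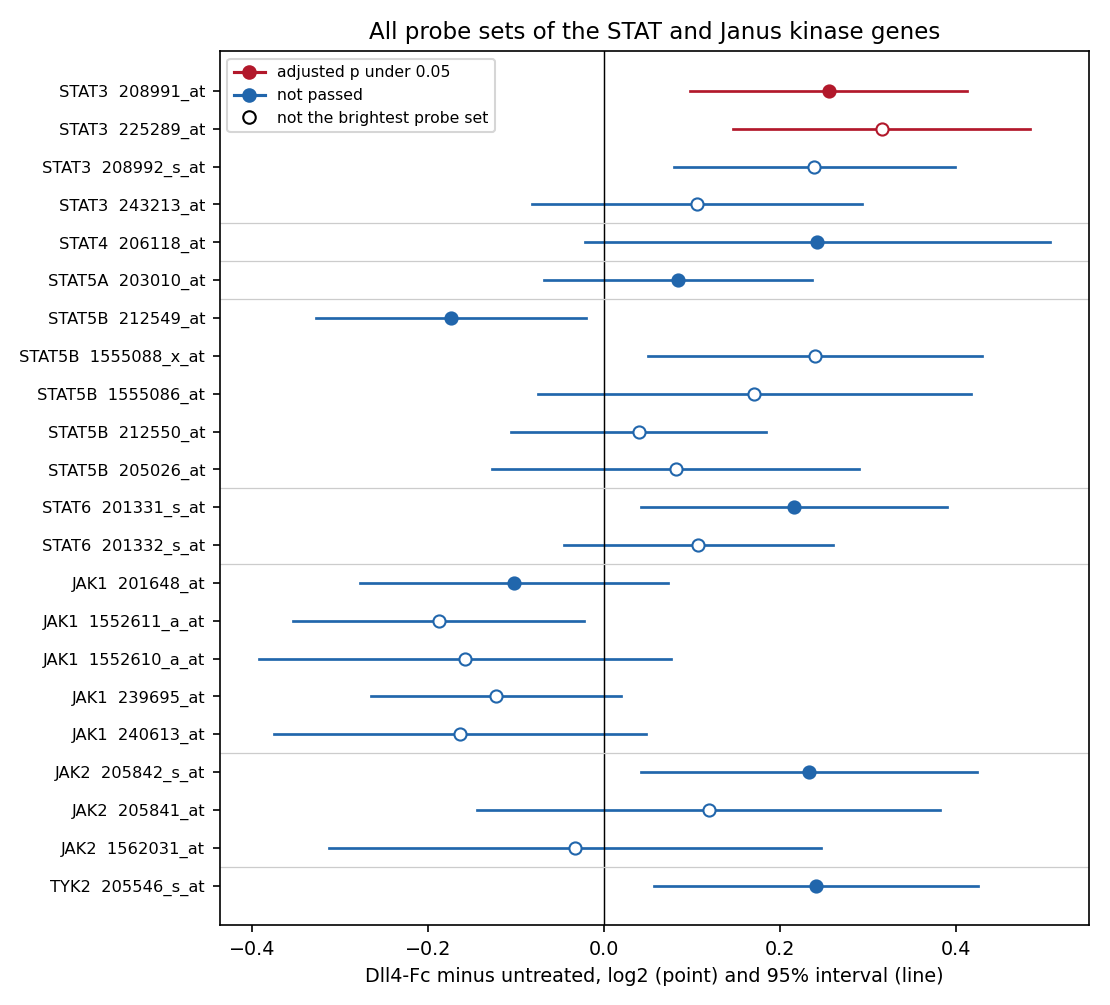
Difference in log2 signal, Dll4-Fc minus untreated (x axis; points with 95% intervals), for all 22 probe sets from the fit of all probe sets, grouped by gene from the brightest down. The 2 red points, both of STAT3, passed; all 5 JAK1 probe sets lie left of 0, and the 5 of STAT5B fall on both sides.

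The start regions of 4 of these genes are shown because STAT3 rose, because STAT5A and STAT5B are neighbours whose brightest probe sets differed in opposite directions, and because windows of STAT4 and STAT5A hold the letters of the RBPJ site. RBPJ is the DNA-binding protein through which Notch acts on its targets. Sequences are from RefSeq (GRCh38.p14) and run 5' to 3' on the gene's strand, from 250 bases before to 50 bases after the start. Capitals mark matches on either strand to GTGGGAA (RBPJ site) or GGGCGG (GC box).
STAT3, chr17:42388393-42388692, minus strand: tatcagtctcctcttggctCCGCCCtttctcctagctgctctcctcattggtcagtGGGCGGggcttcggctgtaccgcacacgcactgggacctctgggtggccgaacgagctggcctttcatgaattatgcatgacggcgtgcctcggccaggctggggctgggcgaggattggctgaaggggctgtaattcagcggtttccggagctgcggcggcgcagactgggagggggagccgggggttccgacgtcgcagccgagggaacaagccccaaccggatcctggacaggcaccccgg
STAT5A, chr17:42287297-42287596, plus strand: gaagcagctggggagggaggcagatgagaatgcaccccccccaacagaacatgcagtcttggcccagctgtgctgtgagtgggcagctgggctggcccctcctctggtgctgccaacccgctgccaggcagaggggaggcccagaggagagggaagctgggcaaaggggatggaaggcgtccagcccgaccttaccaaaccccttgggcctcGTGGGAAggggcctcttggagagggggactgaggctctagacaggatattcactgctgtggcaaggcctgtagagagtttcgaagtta
STAT5B, chr17:42276342-42276641, minus strand: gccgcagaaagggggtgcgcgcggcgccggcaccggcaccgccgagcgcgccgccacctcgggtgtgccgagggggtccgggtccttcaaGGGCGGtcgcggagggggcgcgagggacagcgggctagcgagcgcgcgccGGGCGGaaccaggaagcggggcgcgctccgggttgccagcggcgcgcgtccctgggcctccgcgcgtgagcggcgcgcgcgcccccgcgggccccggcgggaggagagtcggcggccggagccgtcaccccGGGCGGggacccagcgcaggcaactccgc
STAT4, chr2:191151547-191151846, minus strand: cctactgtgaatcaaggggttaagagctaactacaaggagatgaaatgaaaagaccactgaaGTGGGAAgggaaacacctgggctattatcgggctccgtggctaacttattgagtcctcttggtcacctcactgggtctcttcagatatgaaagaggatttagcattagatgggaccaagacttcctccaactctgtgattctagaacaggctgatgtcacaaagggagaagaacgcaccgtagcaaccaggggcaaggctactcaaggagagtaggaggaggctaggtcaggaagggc

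All 9 members had a window in that table, 17 windows in all, since some genes have several starts. Each was searched on both strands for the STAT site TTCNNNGAA, the wider form TTCNNNNGAA that STAT6 prefers, the interferon response core GAAANNGAAA, the RBPJ site and the GC box. Of all 35116 windows 7.66%, 6.44%, 3.57%, 6.25% and 45.0% held them, in that order. STAT4 held the RBPJ letters once in each of its 2 windows, STAT5A once in 1 of its 3 windows, and another STAT5A window held TTCCTCTGAA, a match to the wider STAT form. The windows of STAT2, STAT3, STAT5B, STAT6, JAK1, JAK2 and TYK2 held none of the first 4 motifs, and those of STAT3 and STAT5B held 2 and 3 GC boxes. A match describes the letters in this window only.

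Genes whose profile over the 6 arrays lay closest to that of STAT3, by the root mean square difference of log2 values centred on each gene's mean, were MOB1B (0.013), GTF2A1 (0.016) and DIMT1 (0.017), which differed by 0.27, 0.24 and 0.26. Closest to STAT5B, the most negative member, were PIGT, LYRM4 and DHX30 (0.019 each), which differed by -0.18, -0.20 and -0.17.

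Several receptors that Janus kinases serve rose. Of 37 measured receptor genes 13 rose and 2 fell, with a median difference of 0.13, and 4 rose at least 2-fold. Of all genes 11.6% passed as higher and 15.0% as lower. The receptor, ligand, inhibitor and partner lists were chosen with earlier results of these data known. Their counts are therefore not independent evidence of a direction. The class of interferon and interleukin 10 receptors, which use JAK1 with TYK2 or JAK2, had 7 of 10 higher and 0 lower, with a median of 0.40. IL10RA, the ligand-binding chain for interleukin 10, gave 9.82, 9.81 and 9.72 in Dll4-Fc arrays, against 7.68, 7.64 and 7.52 in untreated arrays. It rose 4.51-fold (2.17 ± 0.06, adjusted p = 7.51e-07). IFNGR1, the ligand-binding chain for interferon gamma, gave 12.37, 12.41 and 12.29 in Dll4-Fc arrays, against 10.75, 10.82 and 10.76 in untreated arrays. It rose 2.99-fold in this probe set, and all 3 of its probe sets rose, by 1.58 to 1.94.

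The other genes of this class that passed rose by less. IFNGR2, which brings JAK2 to the interferon gamma receptor, rose by 0.57 ± 0.06, IFNAR2 of the interferon alpha/beta receptor by 0.47 ± 0.06 and IL10RB by 0.36 ± 0.06. IFNAR1, the chain that TYK2 binds, rose by 0.31 ± 0.08 (adjusted p = 0.0240). This call ended without Dll4-Fc replicate 1 or 2 or untreated replicate 2 (0.0507 to 0.0854) and as the mean of its probe sets (0.19, adjusted p = 0.0878). IL20RB also rose (0.43 ± 0.11, adjusted p = 0.0279), from a dim probe set, and this call ended without Dll4-Fc replicate 1 or untreated replicate 1 or 2 (0.0559 to 0.0921). In this class 7 genes were higher at an unadjusted p under 0.05 as well, and 0 lower.

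The other receptor classes were mixed. In the gp130 class, which signals largely to STAT3, 1 of 11 rose and 2 fell, with a median of 0.06. These shares were close to those of all genes, 11.6% higher and 15.0% lower. IL27RA, a receptor chain for interleukin 27, rose 2.18-fold (1.12 ± 0.11), with 2 of its 3 probe sets passing and a mean over the 3 of 0.64. IL12RB2, the chain that recruits STAT4, fell by 0.63 ± 0.07 and CSF3R, the granulocyte colony-stimulating factor receptor, by 0.45 ± 0.06. IL6ST, the gp130 chain itself, differed by 0.19 ± 0.06 (adjusted p = 0.0659) and IL6R by 0.13 ± 0.05 (0.107).

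Of the common gamma chain class and the receptors for interleukin 4 and 13, 4 of 9 rose and 0 fell, with a median of 0.11. IL21R rose 2.82-fold (1.50 ± 0.11), IL4R, which recruits STAT6, by 0.78 ± 0.07, IL7R by 0.63 ± 0.12 and IL15RA by 0.30 ± 0.07; the last call ended without Dll4-Fc replicate 1 or 2 or untreated replicate 2 (adjusted p = 0.0508 to 0.0582). Of 7 beta common and homodimeric receptors, which use JAK2 and STAT5, 1 rose and 0 fell (median 0.09): CSF2RB, the shared beta chain, by 0.42 ± 0.06. The shares over all genes were 11.6% higher and 15.0% lower. At an unadjusted p under 0.05 none of the 9 and 1 of the 7 were lower. Of 21 cytokine ligand genes 1 rose and 0 fell (2 and 1 at an unadjusted p under 0.05), EBI3, a subunit of interleukin 27 (0.69 ± 0.13), with a median of -0.01. IFNB1, interferon beta, differed by 0.18 ± 0.11 (adjusted p = 0.283) and IFNG by 0.04 ± 0.12 (0.875), both below the median signal.

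**Figure D3:**
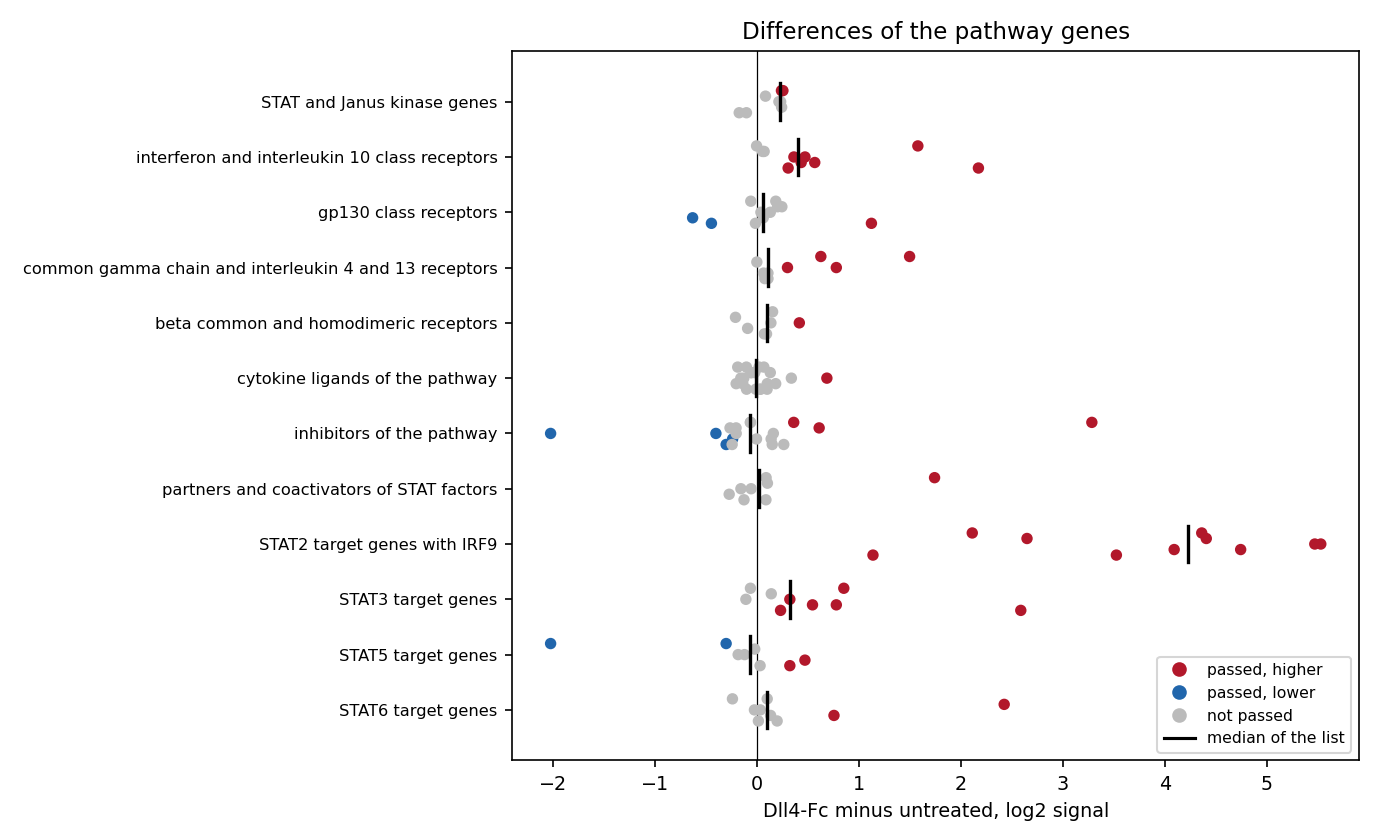
Difference in log2 signal, Dll4-Fc minus untreated (x axis), for each measured gene of the STAT and Janus kinase family and of 11 lists of the pathway (rows); red and blue points passed as higher and lower, grey points did not pass, and black bars are medians. The 8 family members stay between -0.17 and 0.26, and the targets of STAT2 with IRF9 reach from 1.14 to 5.53. That list was drawn up with the rise of interferon-stimulated genes in these samples known. Its distance from the members is thus not independent evidence.

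Inhibitors of the pathway changed in both directions: of 18 measured 3 rose and 4 fell, with a median of -0.06. Genes as a whole also passed in both directions, 11.6% as higher and 15.0% as lower. USP18, which blocks interferon alpha/beta receptor signalling at IFNAR2, gave 10.01, 9.89 and 9.57 in Dll4-Fc arrays, against 6.69, 6.59 and 6.33 in untreated arrays. It rose 9.75-fold (3.29 ± 0.13, adjusted p = 3.53e-06). The phosphatase genes PTPRC (CD45) and PTPN2, which act on Janus kinases or STAT proteins, rose by 0.61 ± 0.07 and 0.36 ± 0.05, and PTPN2 did not pass as the mean of its 7 probe sets (0.18, adjusted p = 0.0516). SOCS2, a target and inhibitor of STAT5 signalling, gave 6.20, 6.14 and 6.33 in Dll4-Fc arrays, against 8.48, 8.29 and 7.97 in untreated arrays. It fell by 2.02 ± 0.13 in this probe set, and 2 of its 3 probe sets fell, with a mean over the 3 of -1.08. The remaining SOCS2 probe set differed in the positive direction, by 0.22, and did not pass. PIAS1 (-0.40 ± 0.06), CISH (-0.30 ± 0.06) and PIAS3 (-0.24 ± 0.07, adjusted p = 0.0417) also fell, while SOCS1 (0.26 ± 0.10) and SOCS3 (-0.06 ± 0.09) did not pass. All 3 CISH probe sets and the 1 of PIAS3 carry suffixes of probes that may be shared between transcripts. The PIAS3 call ended on leaving out any single array except Dll4-Fc replicate 3 (adjusted p = 0.0651 to 0.145), with cyclic loess (0.094), with median centring (0.0531) and with all probe sets fitted together (0.0742).

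Among 8 partners of STAT factors 1 rose and 0 fell (1 and 2 at an unadjusted p under 0.05), with a median of 0.02. Of all genes 11.6% were higher and 15.0% lower. The partner that rose was IRF9, which joins STAT2 in the interferon-induced factor ISGF3. IRF9 gave 10.33, 10.24 and 10.27 in Dll4-Fc arrays, against 8.66, 8.47 and 8.49 in untreated arrays, and rose 3.35-fold (1.74 ± 0.07, adjusted p = 2.85e-06). The coactivator genes EP300 (-0.16 ± 0.06) and CREBBP (0.09 ± 0.07) did not pass.

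Known target genes were counted per STAT factor. All 10 measured targets of STAT2 with IRF9 rose at least 2-fold, with a median of 4.23; MX1, which traps viral particles, rose by 5.53 ± 0.10 (46.3-fold), IFI27 by 5.47 ± 0.22, IFIT3 by 4.75 ± 0.15 and OAS2 by 4.41 ± 0.11 (2.82 as the mean of its 3 probe sets). IFI6 and OAS1 rose by 4.36 ± 0.08 and 4.09 ± 0.13. The rise of interferon-stimulated genes in these samples was known when this list was drawn up, so its count is not independent evidence of a direction. The other target lists were also chosen with earlier results of these data known, and the same limit holds for them. Of 9 measured STAT3 targets 6 rose and 0 fell (7 and 0 at an unadjusted p under 0.05), with a median of 0.32. Of all genes 11.6% were higher and 15.0% lower, and whether STAT3 bears on these targets was not tested. BCL6, a transcriptional repressor, rose 6.02-fold in its brightest probe set (2.59 ± 0.08). All 3 of its probe sets rose, by 0.51 to 2.59, with a mean of 1.35. FGL1, TIMP1 and IL4R rose by 0.85 ± 0.11, 0.55 ± 0.07 and 0.78 ± 0.07. PIM1 (0.32 ± 0.10) and MCL1 (0.23 ± 0.05) also rose. PIM1 lost its call when any single array was left out except Dll4-Fc replicate 1 (adjusted p = 0.0555 to 0.138), and MCL1 without Dll4-Fc replicate 1, without untreated replicate 2 or without shared probe sets (0.0534 to 0.324); as the mean of its 6 probe sets MCL1 differed by 0.45. SOCS3, the classical feedback target of STAT3, did not pass.

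Of 8 STAT5 targets 2 rose and 2 fell, with a median of -0.07. Over all genes 11.6% were higher and 15.0% lower. ID1 (0.47 ± 0.09) and PIM1 rose, and the STAT5 feedback genes SOCS2 and CISH fell. All 3 CISH probe sets and the 1 of ID1 carry suffixes of probes that may be shared between transcripts. Neither gene could be tested without such probe sets. The anti-apoptotic BCL2L1 differed by 0.03 ± 0.10 (adjusted p = 0.863). Of 9 measured STAT6 targets 2 rose and 0 fell (2 and 1 at an unadjusted p under 0.05), with a median of 0.10: the lectin gene CD209 rose 5.37-fold (2.43 ± 0.09) and the transglutaminase gene TGM2 by 0.76 ± 0.19. As the mean of all their probe sets CD209 rose by 1.17 and TGM2 by 0.36, and 1 of 3 CD209 probe sets (0.33) and 1 of 4 TGM2 probe sets (0.05) did not pass. The TGM2 call ended without Dll4-Fc replicate 1 or 2 or untreated replicate 2 (adjusted p = 0.0687 to 0.0819). MRC1 and ALOX15, macrophage genes induced by interleukin 4, differed by 0.10 ± 0.07 and 0.01 ± 0.06 from signals below the array median and did not pass.

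Across 15 alternative ways of processing, or 14 for TYK2 and STAT6, whose probe sets all carry the suffix _s_at for probes shared between transcripts, the sign of the difference was kept in every one for 7 members; STAT5B kept it in 14 of 15. STAT3 passed in 12 of 15, with differences of 0.21 to 0.31. TYK2 passed in 6 of 14 (0.18 to 0.31), STAT6 in 5 of 14, JAK2 and STAT5B in 3 of 15 each, STAT4 in 1, and STAT5A and JAK1 in 0 of 15 (lowest adjusted p = 0.121 and 0.0977 by limma).

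**Figure D4:**
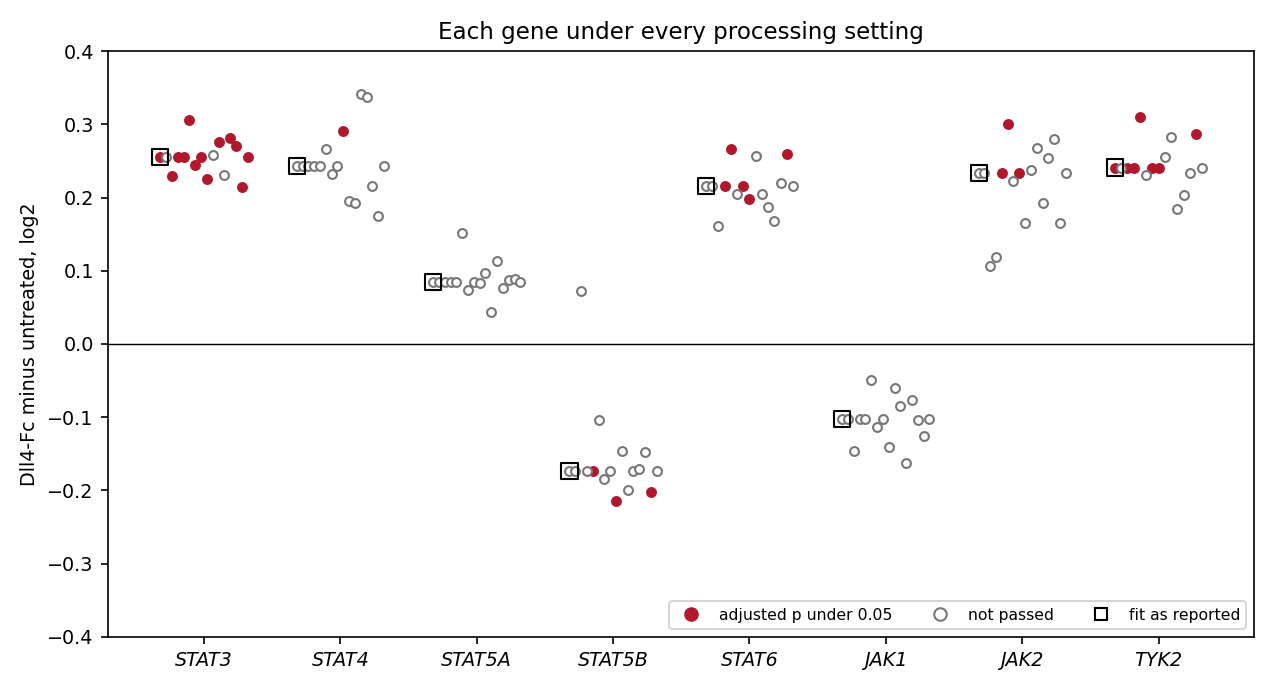
Difference in log2 signal, Dll4-Fc minus untreated (y axis), of each gene (x axis) in the fit as reported (squares) and under each alternative processing (circles); red circles passed and open circles did not. STAT3 stays between 0.21 and 0.31 and is red in 12 of 15 alternatives, and STAT5B crosses 0 once.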

How the data were processed

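RNA (5 ng per sample) was amplified with the NuGEN Ovation system and biotin-labelled, per the labels' protocols. The deposited values are intensities on a linear scale, 1 for each probe set and array, from which log2 was taken. Per the submitters' processing notes, the authors used RMA, of no stated version. RMA subtracts background, equalizes quantiles between arrays and combines probes, so differences of dim probe sets are compressed and a shift in total RNA cannot be seen. Array median intensities were 50.6 to 52.7. Precision is limited by the number of arrays, and the median standard error over all genes was 0.075 in log2.

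Of 54675 probe sets 41097 had exactly 1 symbol in the platform annotation, 1801 had several and 11777 were unnamed there. A gene's brightest probe set by mean over 6 arrays stood for it; 10523 of 19775 genes had several. Groups followed the sample labels. limma 3.58.1 under R 4.3.3 gave 2-sided tests with 4 residual degrees of freedom, and Benjamini-Hochberg adjustment ran over all genes, or over all probe sets in a second fit, with a threshold of 0.05. The members and lists were chosen with earlier results of these data known; lists are described by counts and medians. Named were all members, up to 6 genes of each list that passed without overlap (largest difference first) and the 3 nearest profiles of 2 members; other genes were named after their values were seen. The procedure was tested on simulated data. Alternatives were a replicate block, the mean of a gene's probe sets, leaving out shared (_s_at, _x_at, _a_at) or dim probe sets, cyclic loess, median centring, array weights, a trended robust prior and leaving out each array.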

Additional observations from a re-analysis of the deposited data

How the results depend on the processing

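As reported, 2 members rose. The number was 0 with the replicate number as a block, 1 without shared probe sets, with median centring and with all probe sets fitted together, and 4 without dim features, with array weights, with cyclic loess and with a trended robust prior; it was 0 to 3 when 1 array was left out, 0 without Dll4-Fc replicate 1 or 3 and 1 without Dll4-Fc replicate 2 or untreated replicate 1 or 2. No member fell in that fit, and 1, STAT5B, did without dim features, with array weights and without untreated replicate 3 (range 0 to 1). STAT5B changed sign as the mean of its probe sets (0.072), where the 4 probe sets with positive differences enter the mean beside the brightest, which is negative. Member probe sets passing as higher numbered 2, and 0 with the block, 1 without shared probe sets or with median centring, 6 without dim features, with cyclic loess or a trended robust prior, 5 with array weights and 0 to 3 with 1 array left out; 1 was lower without dim features and with array weights.

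The replicate numbers did not pair the arrays: deviations from the group means of same-numbered arrays correlated at 0.01, -0.21 and -0.15, and 2 of 6 arrays were closest to their own number. With the block the calls of STAT3 (adjusted p = 0.0672), TYK2 (0.0588), PIM1 (0.0703), MCL1 (0.0603) and PIAS3 (0.0855) ended, and 1829 genes were higher and 2061 lower, against 2298 and 2964. Cyclic loess turned that split to 2859 higher and 2466 lower.

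Among gp130 class receptors 3 rose without dim features or with a trended robust prior, 2 with cyclic loess and 4 with array weights (1 to 2 with 1 array left out), and 1 fell without shared probe sets. Beta common and homodimeric receptors had 2 higher with the mean of probe sets or without shared ones, and 1 lower without dim features or with array weights. Cytokine ligands had 2 higher with the block or the mean of probe sets, and 0 to 1 lower with 1 array left out. Of the inhibitors 6 rose with cyclic loess and 5 with a trended robust prior or array weights; 2 fell without shared probe sets, 8 without dim features, with a trended robust prior or array weights, and 3 to 7 with 1 array left out. Partners of STAT factors had 2 higher with a trended robust prior, and 1 lower without dim features, 2 with a trended robust prior or array weights and 0 to 1 with 1 array left out. STAT3 targets had 1 lower with a trended robust prior. STAT5 targets had 1 higher with the block, without shared probe sets, with all probe sets fitted together and 1 to 2 with 1 array left out, and 1 lower without shared probe sets. STAT6 targets had 1 lower with the mean of probe sets, without dim features, with a trended robust prior or array weights and 0 to 1 with 1 array left out, which also gave 1 to 2 higher. Leaving out shared probe sets or dim features tests fewer genes, and leaving out an array tests fewer samples; for the other settings the cause was not tested. All measured targets of STAT2 with IRF9 rose under each alternative, 8 without shared probe sets and 10 otherwise. Of the 22 member probe sets 19 lay above the median signal; differences of the other 3 may be compressed.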
